A study of Mus musculus with 8 samples.

Results

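Genes of matricellular and linking matrix proteins were followed across 3 populations of mouse skeletal muscle. They are the 10 genes Sparc, Sparcl1, Thbs1, Thbs2, Thbs4, Fn1, Tnc, Spp1, Hspg2 and Nid1. They were chosen by symbol, each symbol matched 1 row, and the 10 rows are part of a gene table of 36048 genes. The libraries were of satellite cells (SC, n = 2, numbered 1 and 3), which are the stem cells lying beside the fibres, of endothelial cells (EC, n = 3), which line the vessels, and of single muscle fibres (SMF, n = 3), the contractile cells. SC and EC came from the hindlimb, where some 100000 cells a library were collected by a cell sorter. Each SMF library held 100 intact fibres that were picked by hand from the extensor digitorum longus after 3 h of rest. In comparisons with SMF, population, muscle of origin and way of isolation therefore cannot be told apart. SC and EC were both sorted from the hindlimb, and between them population and the sorting of each cannot be told apart. The sources used here give no genotype, strain, sex, age or sorting markers, and no statement that replicates came from separate animals. The p-values therefore measure only how far these libraries differ, part of which may be technical.

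Matricellular proteins are secreted into the matrix, where they change how cells attach, spread and respond to growth factors rather than bearing load. Linking proteins join the networks of the basement membrane, the sheet that surrounds every muscle fibre and capillary and under which satellite cells lie. Members of both kinds bind integrins, collagens, laminins or heparin-binding factors, and several are known to be made again when muscle is injured.

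Values are FPKM, fragments scaled for the length of the transcript and the depth of the library, so that levels may be set beside each other between genes. Differences are on the log2(FPKM + 1) scale from limma, fitted over all 8 libraries. A gene is said to be called where its p, adjusted by Benjamini-Hochberg over the 16700 genes tested, was below 0.05. Because FPKM shares 1 total among all genes, 3 other scalings were tried, by median of ratios, by upper quartile, and by the sum left after the 50 most abundant genes of each population were set aside (the trimmed-sum scaling). All 10 genes passed the filter of at least 1 FPKM in at least 2 libraries. Coverage corresponded to 278 to 368 Mb of aligned bases in SC and EC libraries and 525 to 581 Mb in SMF libraries. On the longest listed transcript, 1 fragment of 100 aligned bases was worth 0.0242 to 0.0507 FPKM for Tnc and 0.122 to 0.255 FPKM for the short Spp1. The labelled populations carried their own markers. Summed over 7 satellite cell markers, SC libraries had 539 and 615 FPKM, EC libraries 0 to 1.06 and SMF libraries 6.89 to 10.5. Summed over 8 endothelial markers, SC libraries had 18.0 and 24.1 FPKM, EC libraries 1193 to 1227 and SMF libraries 2.99 to 3.62. Summed over 8 fibre markers, SC libraries had 191 and 308 FPKM, EC libraries 10.2 to 23.8 and SMF libraries 32535 to 35739. A pair of libraries stood apart from their replicates in markers of other cells. In EC replicate 2, values were under those of EC replicates 1 and 3 for 7 of 8 pericyte and smooth muscle markers, 7 of 7 fibro-adipogenic progenitor markers and 6 of 6 immune markers with a mean of at least 1 FPKM in EC. SMF replicate 1 lay above both other SMF libraries in 5 of 6 tenocyte markers. Schwann cell markers, 6 in all, summed to 36.5 and 40.8 FPKM in SC, 12.3 to 14.4 in EC and 4.16 to 7.01 in SMF. The values that touch each gene are given beside it.

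The region around the start of transcription is shown for 4 genes that carry the patterns below, Sparc and Hspg2 for high levels in both SC and EC, Thbs2 for SC and Nid1 for EC. They are among the 7 of 10 with an entry in the RefSeq promoter table (GRCm38.p6, the assembly that mm10 names). Each window runs from 250 bases before to 50 bases after the start and is written 5′ to 3′ on the strand of the gene. They are Sparc (chr11:55420031-55420330, minus strand), Thbs2 (chr17:14694213-14694512, minus strand), Hspg2 (chr4:137468553-137468852, plus strand) and Nid1 (chr13:13437352-13437651, plus strand). Capitals mark any match, on either strand, to the TATA box TATAAA, the GC box GGGCGG, the AP-1 site TGANTCA, the ETS site CCGGAAG, the E box CAGCTG or the TEAD site GGAATG.
Sparc: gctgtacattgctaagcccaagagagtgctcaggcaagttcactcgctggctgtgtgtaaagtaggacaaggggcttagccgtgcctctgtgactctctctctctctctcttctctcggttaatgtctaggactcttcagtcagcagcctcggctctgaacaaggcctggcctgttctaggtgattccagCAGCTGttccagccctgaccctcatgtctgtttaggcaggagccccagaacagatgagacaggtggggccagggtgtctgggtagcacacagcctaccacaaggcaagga
Thbs2: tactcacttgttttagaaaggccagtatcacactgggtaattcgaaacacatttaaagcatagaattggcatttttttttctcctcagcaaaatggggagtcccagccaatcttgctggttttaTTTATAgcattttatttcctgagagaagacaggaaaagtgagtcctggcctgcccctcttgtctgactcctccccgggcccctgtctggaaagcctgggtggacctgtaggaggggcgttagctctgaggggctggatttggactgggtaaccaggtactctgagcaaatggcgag
Hspg2: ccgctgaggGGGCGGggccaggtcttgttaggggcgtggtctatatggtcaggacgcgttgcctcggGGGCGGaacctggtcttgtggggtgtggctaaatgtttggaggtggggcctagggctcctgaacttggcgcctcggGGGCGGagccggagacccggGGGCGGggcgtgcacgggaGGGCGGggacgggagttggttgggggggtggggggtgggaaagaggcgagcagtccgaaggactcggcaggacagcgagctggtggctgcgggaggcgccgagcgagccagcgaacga
Nid1: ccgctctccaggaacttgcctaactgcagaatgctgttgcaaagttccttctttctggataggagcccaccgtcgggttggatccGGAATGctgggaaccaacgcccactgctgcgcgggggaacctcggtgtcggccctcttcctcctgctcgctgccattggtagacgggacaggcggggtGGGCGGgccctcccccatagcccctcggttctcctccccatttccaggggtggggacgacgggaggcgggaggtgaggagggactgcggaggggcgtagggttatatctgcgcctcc
The window of Sparc held 1 match, an E box 60 bases before the start. The window of Thbs2 held 1 match to the TATA box, on the other strand, 126 bases before the start. Hspg2 held 5 GC boxes between 241 and 68 bases before the start, and Nid1 held 1 GC box 67 bases and 1 TEAD match 165 bases before it. Among 32851 RefSeq windows of the same length, the E box occurred in 16.3%, the TATA box in 13.6%, the GC box in 35.7% and the TEAD site in 14.7%. The AP-1 and ETS sites, found in 7.81% and 8.86% of all windows, were not in these 4. No letters of these motifs overlapped in the 4 windows. Base composition differed among them, with 55.3% G and C in Sparc, 48.3% in Thbs2, 70.3% in Hspg2 and 64.7% in Nid1, against a median of 52.7% over all windows. A match describes the letters and not a bound site.

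Of the 10 genes, 8 were called higher in SC and 6 in EC than in fibres, and 3 were called between SC and EC. The counts of 6 and 3 lay near the shares of all genes given below. Sparc, Thbs1 and Hspg2 were high in both SC and EC, Thbs2 in SC, and Sparcl1 and Nid1 in EC. Between SC and EC, 3 of the 10 were called, 1 higher in SC (Thbs2) and 2 lower (Sparcl1 and Nid1), where 37.7% of all tested genes were called, 21.2% higher and 16.4% lower. The median log2 difference was -0.43 over the 10 genes and 0.11 over all genes. Between SC and SMF, 8 of 10 were higher in SC and none lower, where 65.1% of all genes were called, 56.5% higher and 8.57% lower, with medians of 2.29 over the 10 and 0.93 over all. Between EC and SMF, 6 of 10 were higher in EC and none lower, where 66.3% of all genes were called, 55.5% higher and 10.8% lower, with medians of 2.69 and 0.85. Both comparisons with fibres use the same SMF libraries. Under median-of-ratios scaling the median over all genes was 0.21 for SC and 0.20 for EC against SMF, and 5 of the 10 genes were called in each. Of all calls under that scaling, 55.1% were higher for SC minus SMF and 56.5% for EC minus SMF. The share of tested genes called under it is not given here. Neither this count nor the rescaled counts below can therefore be read as a result about the listed genes. Called under all 4 scalings and in the TPM table were Sparc, Thbs1, Thbs2, Tnc and Hspg2 in SC, and Sparc, Sparcl1, Thbs1, Hspg2 and Nid1 in EC, against SMF. In bulk RNA, fewer cells of a type and less RNA per cell cannot be told apart.

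**Figure D1:**
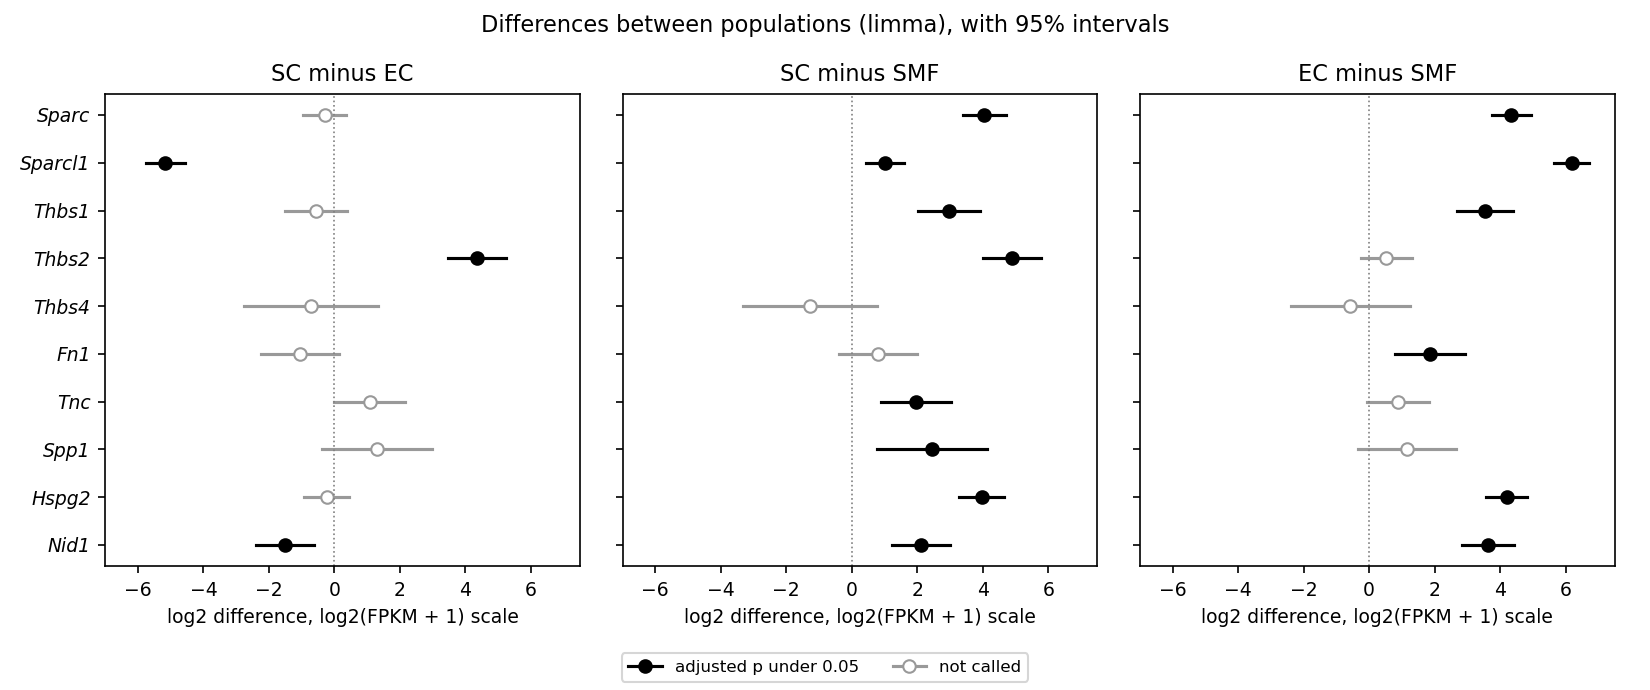
Log2 differences of the 10 genes on the log2(FPKM + 1) scale for SC minus EC, SC minus SMF and EC minus SMF. Points are estimates from limma and bars their 95% intervals, and filled points have an adjusted p under 0.05. Sparcl1 and Thbs2 lie on opposite sides of 0 in the first panel, at -5.16 and 4.37.

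Sparc and Sparcl1 are relatives that share a collagen-binding and a calcium-binding module. Together they made up most of the summed FPKM of the 10 genes in SC and EC libraries, but SC and EC differed in which of them it was. In SMF replicates 1, 2 and 3 the pair took 40.2%, 52.5% and 51.8%. Sparc took 46.9% and 56.2% of the sum in SC, 16.5% to 24.4% in EC and 23.2% to 29.4% in SMF. Sparcl1 took 6.12% and 4.10% in SC, 59.8% to 69.1% in EC and 17.0% to 25.8% in SMF. The sum itself was 421 and 372 FPKM in SC, 1259, 999 and 1306 FPKM in EC, and 46.1, 43.9 and 39.5 FPKM in SMF.

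**Figure D2:**
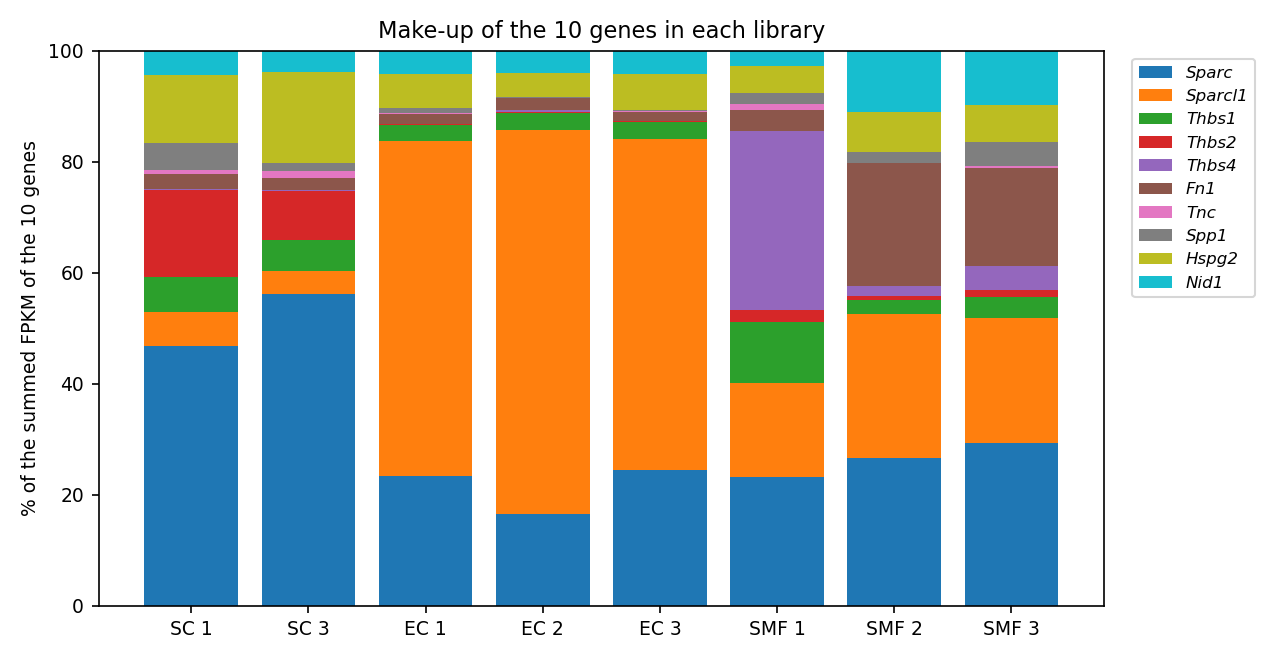
Share of each of the 10 genes in their summed FPKM (y axis, percent) in each library (x axis, SC, then EC, then SMF, with replicate numbers). Sparc takes the largest share in both SC libraries and Sparcl1 in all 3 EC libraries, while Thbs4 takes 32.3% in SMF replicate 1 and 1.86% and 4.33% in SMF replicates 2 and 3.

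Sparc (ENSMUSG00000018593, chromosome 11, 55394159 to 55420080 in GRCm38, as all positions below), a collagen-binding glycoprotein that also alters cell adhesion, stood at 197 and 209 FPKM in SC, 294, 165 and 319 FPKM in EC and 10.7, 11.7 and 11.6 FPKM in SMF. SC and EC overlapped, since EC replicate 2 lay below both SC libraries, and all 5 lay far above the fibres. By mean FPKM over all genes of the table, Sparc ranked 320 in SC, 184 in EC and 1704 in SMF. It was higher than in fibres by a log2 of 4.05 in SC (SE 0.28, adjusted p = 1.51e-05 by limma) and 4.34 in EC (SE 0.25, adjusted p = 3.25e-06). The difference of SC minus EC was -0.30 (95% interval -0.95 to 0.36, adjusted p = 0.461). Without EC replicate 2 it was -0.59 and was called.

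Sparcl1 (ENSMUSG00000029309, chromosome 5, 104079108 to 104114088), an adhesion-modulating glycoprotein known from vessels and brain, stood at 25.7 and 15.3 FPKM in SC, 759, 690.4 and 780.5 FPKM in EC and 7.83, 11.4 and 8.85 FPKM in SMF. No library of 1 population reached the range of another. In EC it ranked 85 by mean FPKM, above Sparc. It was lower in SC than in EC by a log2 difference of -5.16 (SE 0.25, adjusted p = 4.72e-06 by limma) and higher in EC than in SMF by 6.18 (SE 0.22, adjusted p = 3.45e-07), which is 79.6-fold between the means. The EC values differed little among replicates, and EC replicate 2 was again the lowest. Against fibres, SC differed by 1.03 (SE 0.25, adjusted p = 0.00775), but this direction turned under median-of-ratios and upper-quartile scaling (-0.45 and -0.14). It was not called under the trimmed-sum scaling, where it was 0.05, nor without SC replicate 1, where it was 0.67.

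The ratio of Sparcl1 to Sparc within a library does not depend on how libraries are scaled. It was 0.131 and 0.0730 in SC, 2.58, 4.18 and 2.45 in EC and 0.732, 0.969 and 0.762 in SMF. The populations did not overlap, and Sparcl1 was the lower of the pair in all SC and SMF libraries. On the log2 scale the mean ratio was -3.36 ± 0.59 in SC (SD, n = 2), 1.57 ± 0.43 in EC and -0.30 ± 0.22 in SMF (n = 3 each). An exact two-sided permutation test gave p = 0.20 for SC against EC and for SC against SMF and p = 0.10 for EC against SMF, the smallest values these numbers of libraries allow. The size of the ratio depended on the deposited table. In TPM, Sparcl1 stood at 516 and Sparc at 290 in EC replicate 1, and at 6.01 and 11.3 in SMF replicate 1. The order of the pair was the same as in FPKM in every library.

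**Figure D3:**
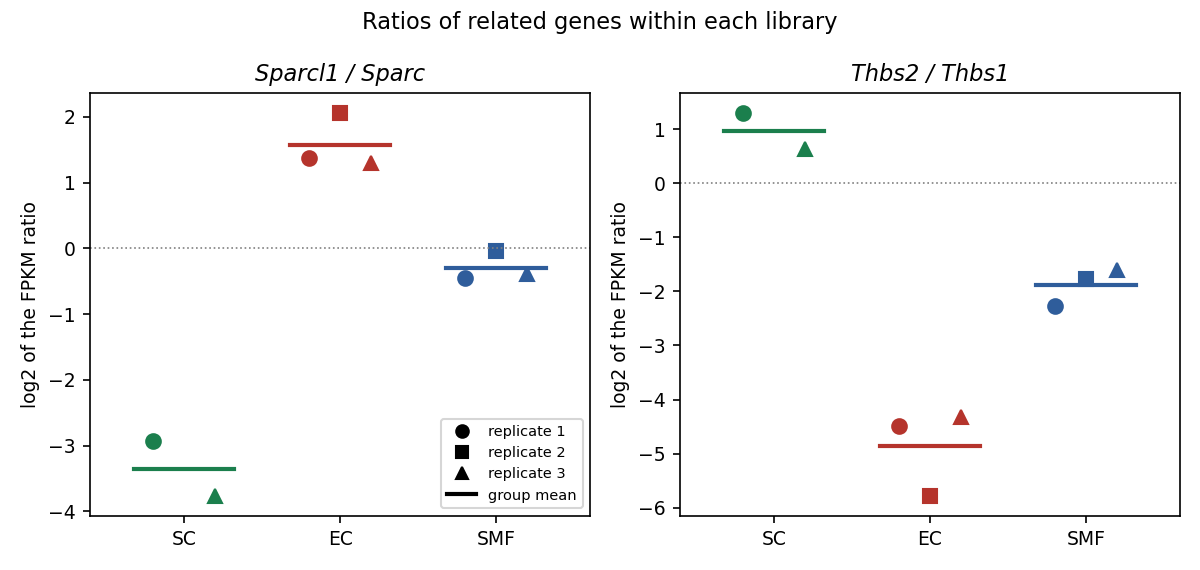
Log2 of the FPKM ratio of Sparcl1 to Sparc (left) and of Thbs2 to Thbs1 (right) in each library of SC, EC and SMF. Points are libraries, marked by replicate number, and lines are group means. SC is lowest for the first ratio and highest for the second, and EC is highest for the first and lowest for the second.

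Thrombospondins are large secreted glycoproteins that bind integrins, Cd36, Cd47 and proteases. Thbs1 and Thbs2 assemble as trimers and are known to restrain vessel growth, and Thbs4 assembles as a pentamer and is abundant in tendon. The 3 genes had 3 patterns in these populations.

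Thbs1 (ENSMUSG00000040152, chromosome 2, 118111876 to 118127133) stood at 26.6 and 21.0 FPKM in SC, 36.2, 31.4 and 39.0 FPKM in EC and 4.99, 1.10 and 1.51 FPKM in SMF. Every SC library lay below every EC library by a small margin, and SMF replicate 1 was higher than the other two fibre libraries. Thbs1 was higher than in fibres by a log2 of 2.96 in SC (SE 0.41, adjusted p = 0.00044 by limma) and 3.53 in EC (SE 0.37, adjusted p = 7.82e-05). SC minus EC was -0.56 (95% interval -1.52 to 0.40, adjusted p = 0.332). Platelets also carry thrombospondin 1, and 4 platelet markers summed to 1.86 and 0.55 FPKM in SC, 4.65, 0.89 and 2.12 FPKM in EC and 0.11, 0.39 and 0.71 FPKM in SMF, with 1 to 3 of them listed at 0 in every library.

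Thbs2 (ENSMUSG00000023885, chromosome 17, 14665500 to 14694262) stood at 66.0 and 32.5 FPKM in SC, 1.62, 0.565 and 1.95 FPKM in EC and 1.04, 0.323 and 0.499 FPKM in SMF. It was high in both SC libraries, and neither of the other populations reached their range, although SC replicate 1 stood well above SC replicate 3. Thbs2 was higher in SC than in EC by a log2 of 4.37 (SE 0.38, adjusted p = 8.74e-05 by limma), 35.7-fold between the means, and higher in SC than in SMF by 4.90 (SE 0.38, adjusted p = 2.39e-05). EC and SMF overlapped, with a difference of 0.53 (95% interval -0.26 to 1.32, adjusted p = 0.202) that was -0.14 under median-of-ratios scaling. Fibro-adipogenic progenitors, which share the tissue, are known for matrix genes, and of their 11 markers 9 were tested and 2, Dpt and Col3a1, were higher in SC than in EC. Their summed FPKM was 259 and 256 in SC, 19.2 to 85.8 in EC and 23.9 to 55.3 in SMF, and 3 of the 11 were listed at 0 in SC replicate 1. Their defining receptor gene Pdgfra stood at 1.31 and 1.70 FPKM in SC and 2.57, 0.221 and 1.85 FPKM in EC. The part of such cells in the level of Thbs2 was not tested.

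Within each SC library Thbs2 exceeded Thbs1, with ratios of 2.48 and 1.55. The ratio was 0.0447, 0.0180 and 0.0501 in EC and 0.208, 0.293 and 0.331 in SMF, so that the populations did not overlap. The mean log2 ratio was 0.97 ± 0.48 in SC (SD, n = 2), -4.87 ± 0.81 in EC and -1.88 ± 0.35 in SMF (n = 3 each). The exact two-sided permutation p was again the smallest possible, 0.20 for both comparisons of SC and 0.10 for EC against SMF.

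Thbs4 (ENSMUSG00000021702, chromosome 13, 92751586 to 92794818) stood at 0.661 and 0.853 FPKM in SC, 1.30, 4.50 and 0.887 FPKM in EC and 14.9, 0.817 and 1.71 FPKM in SMF. It was high in SMF replicate 1, while SMF replicate 3 lay within the range of EC and SMF replicate 2 just below it. It was not called in any comparison, with log2 differences of -0.71 for SC minus EC, -1.28 for SC minus SMF and -0.57 for EC minus SMF. Limma gave adjusted p = 0.575, 0.232 and 0.540, and the 95% intervals reached from -3.33 to 1.33 over the 3 comparisons. Without SMF replicate 1, SC minus SMF was -0.34 and EC minus SMF 0.38, and without EC replicate 2, SC minus EC was -0.25.

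Tenocyte markers moved with Thbs4 among the fibre libraries. The matrix proteoglycan gene Fmod stood at 13.0 FPKM in SMF replicate 1 and at 0.627 and 1.24 FPKM in SMF replicates 2 and 3. Kera, a related proteoglycan gene, stood at 2.72 FPKM in SMF replicate 1, was listed at 0 in SMF replicate 2 and stood at 0.141 FPKM in SMF replicate 3. Tnmd, the tendon membrane protein gene tenomodulin, stood at 2.52 FPKM in SMF replicate 1 and was listed at 0 in the other 7 libraries. Scx, the transcription factor gene of tendon, stood at 1.57 FPKM in SMF replicate 1 and at 0.613 and 1.09 FPKM in the other two, but was higher in SC, at 3.77 and 6.73 FPKM, and listed at 0 in EC. Summed over the 6 markers, SC libraries had 6.56 and 9.99 FPKM, EC libraries 3.78, 7.25 and 4.92 FPKM and SMF libraries 20.2, 1.24 and 2.59 FPKM. Mkx was listed at 0 in SMF replicate 1. EC replicate 2, with the highest Thbs4 of the EC libraries, also had the highest Fmod among them, at 6.51 FPKM against 3.29 and 4.83 FPKM in EC replicates 1 and 3. The part of tendon cells in the level of Thbs4 was not tested.

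**Figure D4:**
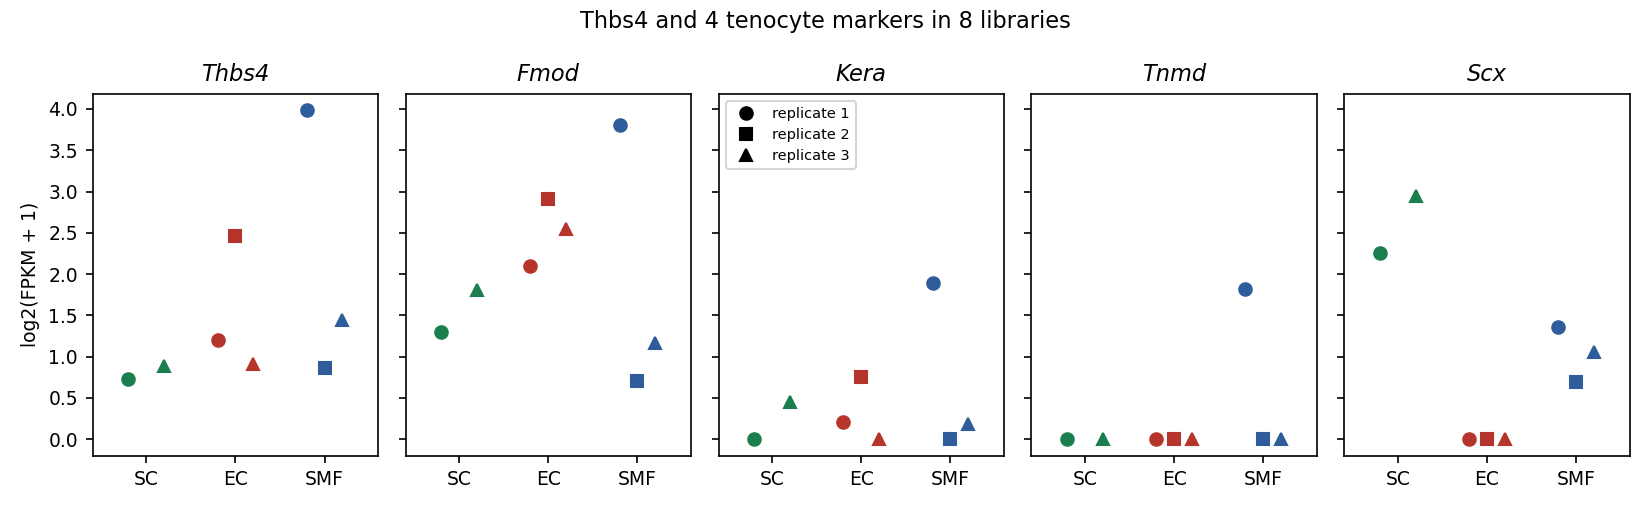
Thbs4 and the tenocyte markers Fmod, Kera, Tnmd and Scx as log2(FPKM + 1) in each library of SC, EC and SMF, with replicate numbers as symbols. SMF replicate 1 lies above both other fibre libraries in each panel, and Tnmd is above 0 in that library alone.

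Fn1, Tnc and Spp1 encode glycoproteins that cells grip through integrins. Fibronectin, the product of Fn1, is deposited as fibrils and is part of the niche of satellite cells during repair, tenascin C, the product of Tnc, is known from tendon junctions and injured tissue, and osteopontin, the product of Spp1, is a phosphoprotein secreted by macrophages and other cells after injury. In FPKM these 3 genes stood at lower levels than Sparc in every library. In the deposited TPM table, Fn1 exceeded Sparc in SMF replicate 2, at 20.4 against 18.1.

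Fn1 (ENSMUSG00000026193, chromosome 1, 71585473 to 71653280) stood at 11.1 and 8.35 FPKM in SC, 21.2, 21.8 and 20.6 FPKM in EC and 1.71, 9.68 and 7.01 FPKM in SMF. The EC libraries lay close together and above all others, while the SC values overlapped with those of the fibres. Fn1 was higher in EC than in SMF by a log2 of 1.85 (SE 0.46, adjusted p = 0.00777 by limma), a call lost under the 3 other scalings, at 0.61 (median of ratios), 0.74 (upper quartile) and 1.39 (trimmed sum). SC minus EC was -1.06 (95% interval -2.25 to 0.13, adjusted p = 0.146), of the same size but called without SMF replicate 1 or in a fit of SC and EC only. SC minus SMF was 0.79 (95% interval -0.39 to 1.98, adjusted p = 0.207), and -0.57, -0.28 and -0.08 under the 3 other scalings. Without SMF replicate 1 it was 0.20. SMF replicate 1 was the lowest fibre library for Fn1. Of the 7 fibro-adipogenic progenitor markers with a mean of at least 1 FPKM in SMF, it was below both others in 6. Among these, the proteoglycan gene Dcn stood at 10.9 FPKM against 26.9 and 24.7 FPKM in SMF replicates 2 and 3. The exception was Col1a1, at 7.58 FPKM against 3.60 and 2.81 FPKM. The part of such cells in the level of Fn1 was not tested.

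The level of Fn1 depended on the deposited table. In the deposited TPM, another unit scaled for length, it stood at 19.1 and 24.3 in SC, 28.7, 51.4 and 33.6 in EC and 2.42, 20.4 and 7.57 in SMF. EC replicate 2 and SMF replicate 2 were the highest of their groups on this scale. Among the 16 listed transcripts of Fn1, the long ENSMUST00000055226 (46 exons, 8315 bases) took 27.7% and 33.6% of the listed FPKM in SC, 59.9%, 25.3% and 59.3% in EC and 68.2%, 22.5% and 70.3% in SMF. The shorter ENSMUST00000185408 (17 exons, 4022 bases), which shares the 3′ part, took 52.0% in SC replicate 1, 55.1% in EC replicate 2 and 52.2% in SMF replicate 2 and at most 8.37% in the other 5 libraries. This share differed between replicates of every population and is given as a description.

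Tnc (ENSMUSG00000028364, chromosome 4, 63959785 to 64047015) was the lowest of the 3, at 3.02 and 4.42 FPKM in SC and 2.28, 0.104 and 1.97 FPKM in EC. In SMF it stood at 0.517 and 0.140 FPKM in replicates 1 and 3 and was listed at 0 in replicate 2. Both SC libraries lay above all others, and EC replicate 2 lay far below both other EC libraries, at a level of about 2.72 fragments. Tnc was higher in SC than in SMF by a log2 of 1.96 (SE 0.46, adjusted p = 0.00661 by limma). SC minus EC was 1.08 (95% interval 0.00 to 2.16, adjusted p = 0.108), and 0.58 without EC replicate 2. EC minus SMF was 0.88 (95% interval -0.08 to 1.84, adjusted p = 0.0943), and 1.38 and called without EC replicate 2.

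Spp1 (ENSMUSG00000029304, chromosome 5, 104435111 to 104441053) stood at 20.1 and 5.60 FPKM in SC, 11.2, 1.30 and 2.88 FPKM in EC and 0.939, 0.899 and 1.71 FPKM in SMF. Replicate 1 was the highest in both sorted populations, and SC and EC overlapped. The 4 listed transcripts of Spp1 all stood at 0 FPKM except in SC replicate 1 and EC replicate 2. The gene values of the other libraries therefore have no listed transcript behind them. Spp1 was higher in SC than in SMF by a log2 of 2.45 (SE 0.72, adjusted p = 0.0176 by limma). That call was lost at 1.62 without SC replicate 1, and at 1.32, 1.58 and 2.05 under the 3 other scalings. SC minus EC was 1.31 (95% interval -0.37 to 2.98, adjusted p = 0.198), and it turned on single libraries. It was 1.98 and called without EC replicate 1, and not called at 0.78 without EC replicate 2, 0.47 without SC replicate 1 and 2.14 without SC replicate 3. EC minus SMF was 1.15 (95% interval -0.35 to 2.65, adjusted p = 0.149). The 8 immune markers summed to 28.6 and 36.2 FPKM in SC, 58.7, 10.6 and 81.0 FPKM in EC and 1.30, 4.24 and 3.00 FPKM in SMF, with 1 listed at 0 in each SC library and 3 to 5 in the SMF libraries. None of the 5 tested was called between SC and EC. The macrophage lysozyme gene Lyz2 stood at 22.8 and 24.4 FPKM in SC and 43.7, 7.94 and 62.3 FPKM in EC. EC replicate 2 was the lowest EC library for Lyz2 and Spp1 alike, but their highest EC library differed. C1qa, another of the 8 markers, stood at 0.599 and 2.69 FPKM in SC and 1.35, 0.776 and 1.10 FPKM in EC. It had the order of Spp1 in EC and the opposite order in SC. The part of immune cells in the level of Spp1 was not tested.

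**Figure D5:**
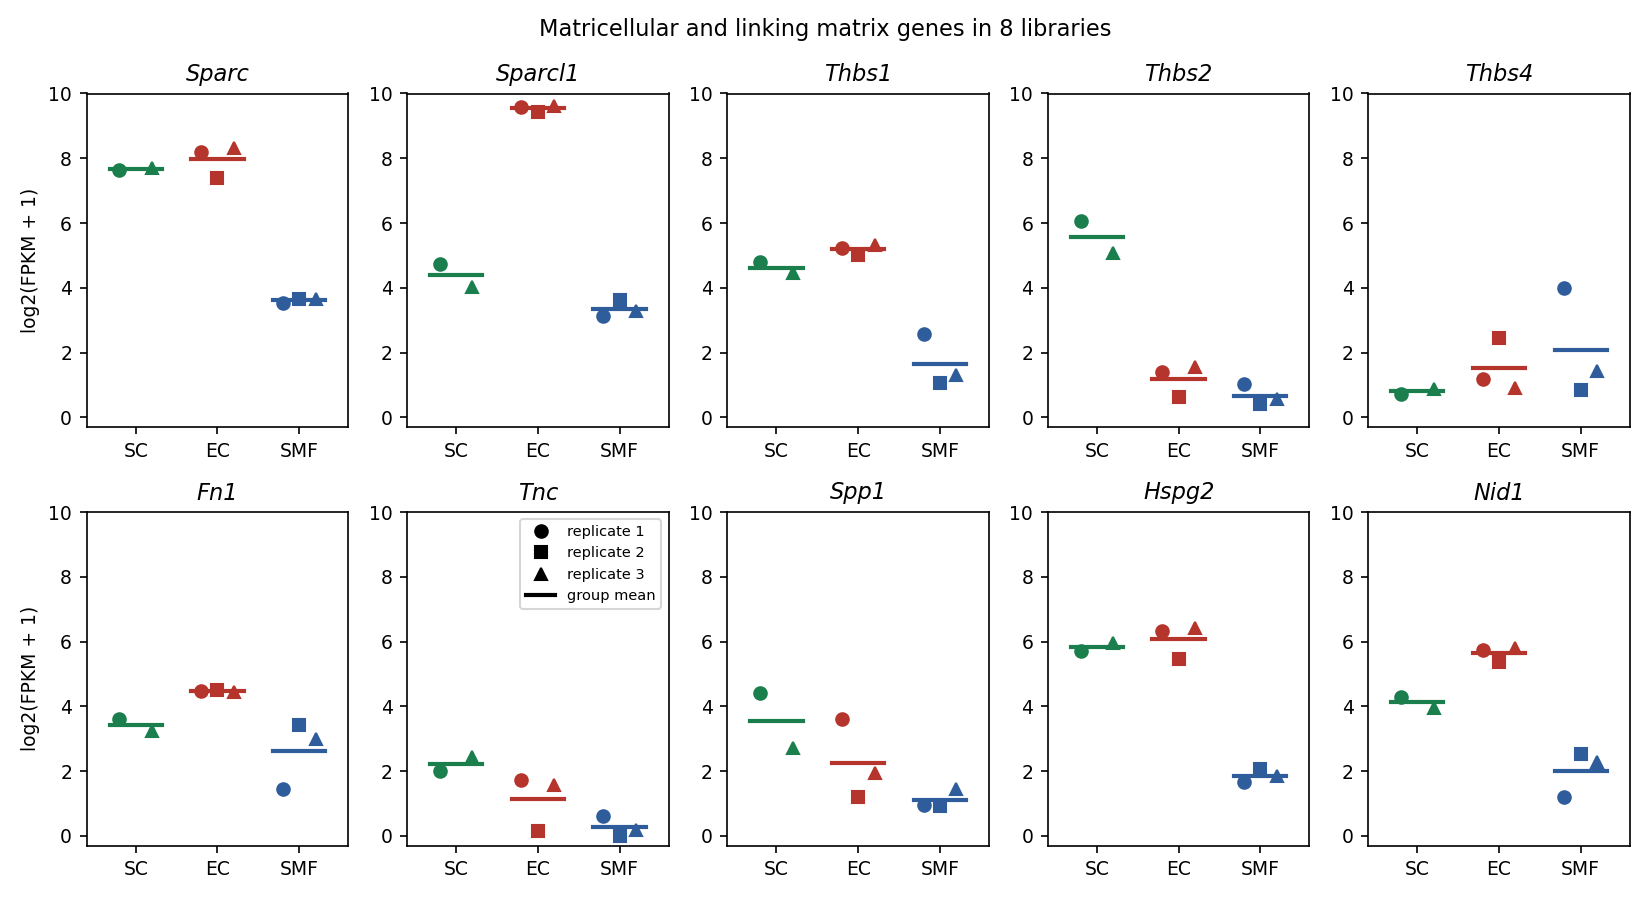
Each of the 10 genes as log2(FPKM + 1) (y axis) in the libraries of SC, EC and SMF (x axis), with replicate numbers as symbols and group means as lines. Sparcl1 is high in EC, Thbs2 in SC, and Sparc, Thbs1 and Hspg2 in both SC and EC, while SMF replicate 1 stands apart for Thbs4, and replicate 1 is the highest for Spp1 in SC and in EC.

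Hspg2 and Nid1 encode linkers of the basement membrane. Perlecan, the product of Hspg2, is a heparan sulphate proteoglycan that binds growth factors and dystroglycan, and nidogen 1, the product of Nid1, bridges laminin and collagen IV.

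Hspg2 (ENSMUSG00000028763, chromosome 4, 137468751 to 137570630) stood at 51.6 and 60.4 FPKM in SC, 78.8, 43.0 and 84.4 FPKM in EC and 2.17, 3.21 and 2.59 FPKM in SMF. SC and EC overlapped because EC replicate 2 lay below both SC libraries, as it did for Sparc. The 2 listed transcripts of Hspg2 stood far below the gene values, at 8.45 and 1.68 FPKM in EC replicate 1. Hspg2 was higher than in fibres by a log2 of 3.97 in SC (SE 0.30, adjusted p = 2.08e-05 by limma) and 4.20 in EC (SE 0.27, adjusted p = 4.97e-06). SC minus EC was -0.24 (95% interval -0.93 to 0.46, adjusted p = 0.587).

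Nid1 (ENSMUSG00000005397, chromosome 13, 13437602 to 13512275) stood at 18.7 and 14.6 FPKM in SC, 52.2, 40.2 and 54.9 FPKM in EC and 1.31, 4.81 and 3.90 FPKM in SMF. The 3 populations did not overlap. Nid1 was higher in EC than in SMF by a log2 of 3.62 (SE 0.34, adjusted p = 4.22e-05 by limma) and in SC than in SMF by 2.12 (SE 0.38, adjusted p = 0.00166), the second of which was not called at 0.78 and 1.07 under median-of-ratios and upper-quartile scaling. SC minus EC was -1.50 (SE 0.38, adjusted p = 0.0166), not called at -1.67 and -1.33 without SC replicate 1 or SC replicate 3, nor at -1.55 with a pseudocount of 0.1 (adjusted p = 0.0509 by limma). The ratio of Hspg2 to Nid1 was 2.76 and 4.15 in SC, 1.51, 1.07 and 1.54 in EC and 1.66, 0.668 and 0.664 in SMF. It was higher in both SC libraries than in any other (exact permutation p = 0.20 against each population, the smallest possible), and EC and SMF overlapped (exact permutation p = 0.40). In the deposited TPM the ratio of SMF replicate 1 (Hspg2 at 3.81 and Nid1 at 0.942) exceeded that of SC replicate 1 (39.6 and 12.3).

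EC replicate 2 had the lowest value of the EC libraries for 8 of the 10 genes, with a median log2 of -0.62 against the mean of the other two. The exceptions were Fn1 and Thbs4, where it was the highest. In the same library the pericyte and smooth muscle markers had a median log2 of -1.47, the fibro-adipogenic markers of -1.38 and the immune markers of -1.61. The pericyte list summed to 262 and 325 FPKM in SC, 591, 295 and 715 FPKM in EC and 29.1 to 30.5 FPKM in SMF, with none of its 8 markers listed at 0 in SC or EC. Acta2 was the largest of the list in SC, at 135 and 194 FPKM. Of the 8 markers, 4 were lower in SC than in EC and 2, Acta2 and Notch3, higher. Of all tested genes, 16.4% were lower and 21.2% higher. Rgs5, a defining pericyte gene, stood at 392.3, 153 and 473 FPKM in EC and at 11.7 and 4.81 FPKM in SC. Tagln of the same list stood at 36.3, 76.0 and 48.8 FPKM in EC and at 46.2 and 52.9 FPKM in SC. Sparc and Hspg2 followed the order of Rgs5, as did the endothelial marker Kdr, at 138, 80.9 and 154 FPKM in EC. The part of mural cells in the levels of the 10 genes was not tested. The endothelial markers of EC replicate 2 summed to 1227 FPKM, the highest of the EC libraries. Of these 8 markers, this library lay above both others in 4 and below both in 2, with Pecam1 at 276 FPKM against 169 and 166 FPKM.

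For each gene, up to 2 genes with the most similar course over the 8 libraries were found by the root mean square difference of centred log2(FPKM + 1) values. For Sparc they were the adaptor gene Ywhaq (0.16) and Myadm (0.18), and Ywhaq was also nearest to Hspg2 (0.16), followed by the receptor gene Notch1 (0.20). For Sparcl1 they were the capillary surface gene Ly6c1 (0.19) and Kitl (0.21), the ligand of the receptor Kit. For Thbs1 they were the tropomyosin gene Tpm3 (0.14) and Tram1 (0.30), and the nearest to Thbs2 was the cytokine gene Clcf1 (0.29). Nid1 was followed by Fcho2 and Cdk17 (0.29 each), Fn1 by the matrix gene Ecm1 (0.34) and Apc-ps1 (0.39), and Tnc by Emb (0.21) and Nckap5los (0.24). The matches of Spp1 (Rps27a at 0.45 and Ccna2 at 0.45) and of Thbs4 (Fmod at 0.62 and Rcan1 at 0.72) were the loosest of the 10.

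Other matricellular and linking genes were described from a list of 24, of which 18 were tested. In SC against EC, where 21.2% of all tested genes were higher and 16.4% lower, the median log2 was 0.64 over the 18. Of the 18, 6 were higher and 5 lower. These 11 calls were 6 without SC replicate 1 and 5 without SC replicate 3. Cyr61, an early response matricellular gene, stood at 564 ± 189.9 FPKM in SC and 142 ± 46.9 FPKM in EC (SD, here and below with n = 2 for SC and 3 for EC and SMF; log2 2.00, adjusted p = 0.00615 by limma). Tnxb, the large tenascin of loose connective tissue, stood at 26.4 ± 1.20 FPKM in SC and 2.69 ± 0.894 FPKM in EC (log2 2.92), and Matn2, a matrilin gene, at 18.5 ± 1.18 FPKM in SC and 0.419 ± 0.508 FPKM in EC (log2 3.84). In the other direction, the fibulin gene Fbln2 stood at 22.9 ± 6.42 FPKM in SC and 54.9 ± 17.3 FPKM in EC (log2 -1.21, adjusted p = 0.0158). Tgfbi stood at 2.63 ± 0.973 FPKM in SC and 8.68 ± 0.680 FPKM in EC (log2 -1.44), called in 2 of 5 scalings and tables. Against SMF, 12 were higher in SC and 1 lower, and likewise 12 were higher in EC and 1 lower, with 10 higher under each other scaling. Over all tested genes, 56.5% were higher in SC and 55.5% in EC than in SMF, so that these counts lay near the share of all genes. The 13 calls for SC minus SMF were 8 without SC replicate 3. The gene with higher values in fibres was Smoc2, a Sparc relative, at 1.27 ± 0.125 FPKM in SC, 0.730 ± 0.658 FPKM in EC and 4.55 ± 0.673 FPKM in SMF. Fstl1, another relative of Sparc, stood at 65.4 ± 10.2 FPKM in SC, 31.7 ± 3.79 FPKM in EC and 3.36 ± 1.79 FPKM in SMF, and was higher in SC than in SMF by a log2 of 4.03 and in EC than in SMF by 3.01.

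Of 12 basement membrane partners of Hspg2 and Nid1, 2 were higher in SC than in EC and 6 lower. Of all tested genes, 21.2% were higher and 16.4% lower. The median log2 was -1.12 over the 12 partners. Lama2, the laminin chain of muscle, stood at 41.8 ± 1.17 FPKM in SC and 0.778 ± 0.629 FPKM in EC (log2 4.66, adjusted p = 1.97e-05 by limma). Lamc1, the common gamma chain, stood at 64.8 ± 5.71 FPKM in SC and 33.2 ± 4.16 FPKM in EC (log2 0.95), a call lost under the trimmed-sum scaling. The collagen IV genes were lower in SC than in EC, Col4a1 at 92.6 ± 6.09 FPKM in SC and 228 ± 81.4 FPKM in EC (log2 -1.22) and Col4a2 at 44.7 ± 9.98 FPKM in SC and 195 ± 73.2 FPKM in EC (log2 -2.04). Within EC, replicate 2 was again the lowest, with Col4a1 at 134 FPKM against 269 and 280.3 FPKM and Col4a2 at 112 FPKM against 222 and 251 FPKM in EC replicates 1 and 3. It lay below both in 8 of the 11 partners with a mean of at least 1 FPKM in EC, as it did in the pericyte markers given above, whose part in these levels was not tested. Lamb2 stood at 16.5 ± 1.40 FPKM in SC and 40.3 ± 2.16 FPKM in EC (log2 -1.24). Against SMF, 11 of 12 were higher in SC (9 under median-of-ratios scaling, with 1 lower) and 11 of 12 in EC. Of all tested genes, 56.5% were higher in SC and 55.5% in EC than in SMF. In SMF, Col4a1 stood at 1.39 ± 0.441 FPKM, Col4a2 at 1.56 ± 0.516 FPKM and Lamc1 at 3.05 ± 0.574 FPKM.

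Receptors of these proteins divided between SC and EC. Of 16 receptor genes, 15 were tested, and 6 were higher in SC and 6 lower. Of all tested genes, 21.2% were higher in SC and 16.4% lower. The median log2 was -0.45 over the 15 receptor genes. Higher in SC were the syndecan gene Sdc4, which binds fibronectin (326 ± 36.7 FPKM in SC and 2.08 ± 1.22 FPKM in EC, log2 6.80), the perlecan and laminin receptor gene Dag1 (195 ± 21.6 FPKM in SC and 21.9 ± 2.21 FPKM in EC, log2 3.09) and the laminin integrin gene Itga7 (42.3 ± 1.62 FPKM in SC and 4.69 ± 2.52 FPKM in EC, log2 3.05). Lower in SC were the thrombospondin receptor genes Cd36 (3.76 ± 3.23 FPKM in SC and 542 ± 14.1 FPKM in EC, log2 -7.02) and Cd47 (10.7 ± 3.75 FPKM in SC and 27.5 ± 5.66 FPKM in EC, log2 -1.30). Against SMF, 9 receptor genes were higher in SC and 1 lower, and 10 were higher in EC and 2 lower (9 higher and 5 lower by median of ratios or upper quartile). The higher counts lay near the share of all tested genes, 56.5% higher in SC and 55.5% in EC than in SMF. Itgb1, the common beta chain, stood at 93.4 ± 7.96 FPKM in SC, 128 ± 10.2 FPKM in EC and 19.3 ± 1.40 FPKM in SMF, a log2 of 2.22 for SC and 2.67 for EC against SMF. Itga4, an integrin chain that binds fibronectin, was lower than in fibres in both, at 0.245 ± 0.0741 FPKM in SC, 0.750 ± 0.560 FPKM in EC and 2.68 ± 0.411 FPKM in SMF (log2 -1.56 for SC and -1.12 for EC against SMF).

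Of 12 proteases and crosslinkers, 10 were tested. Between SC and EC, 4 were higher in SC and 1 lower, where 21.2% of all tested genes were higher and 16.4% lower. Mmp2, a gelatinase, stood at 48.5 ± 5.24 FPKM in SC and 3.21 ± 0.362 FPKM in EC (log2 3.56, adjusted p = 9.26e-06 by limma). Bmp1, a procollagen protease, stood at 17.9 ± 4.74 FPKM in SC and 3.21 ± 1.55 FPKM in EC (log2 2.23), and Mmp14, a membrane protease, at 19.2 ± 1.58 FPKM in SC and 8.68 ± 1.97 FPKM in EC (log2 1.08), a call lost under the trimmed-sum scaling. Tgm2, a transglutaminase that crosslinks fibronectin, was the gene lower in SC, at 5.39 ± 2.30 FPKM against 103 ± 33.1 FPKM in EC (log2 -4.03). Against SMF, 8 were higher in SC and 9 in EC, and none was lower, where 56.5% and 55.5% of all tested genes were higher. Under median-of-ratios scaling 7 were higher and 3 lower in SC, and 5 were higher in EC. Adamts1, a protease that cleaves proteoglycans and thrombospondin 1, stood at 78.6 ± 5.01 FPKM in SC, 100.4 ± 6.81 FPKM in EC and 15.4 ± 2.84 FPKM in SMF (log2 2.29 for SC and 2.64 for EC against SMF). Adamts4, a related protease, stood at 20.9 ± 9.36 FPKM in SC, 24.3 ± 1.92 FPKM in EC and 1.54 ± 0.481 FPKM in SMF, and was higher in SC than in SMF by a log2 of 3.05. Ctsb, the gene of the lysosomal protease cathepsin B, stood at 38.5 ± 0.256 FPKM in SC, 36.3 ± 1.29 FPKM in EC and 17.5 ± 1.19 FPKM in SMF. Its log2 of 1.09 for SC and 1.01 for EC against SMF changed sign among the scalings, down to -0.44 for SC and -0.35 for EC.

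Transcripts of Sparc with different starts were listed for the same gene body. ENSMUST00000108858 and ENSMUST00000018737 have 10 exons each and start at 55419898 and at 55420080, the second being the start of the RefSeq window shown above. The first took 68.3% and 79.8% of the listed FPKM of Sparc in SC, 22.0%, 0% and 87.2% in EC and 1.41%, 0% and 0% in SMF. The second took 24.9% and 12.7% in SC, 72.3%, 84.8% and 7.48% in EC and 98.6%, 48.1% and 53.5% in SMF. Both SC libraries had more of the first and all SMF libraries more of the second, while the EC libraries disagreed among themselves. These shares are estimates from short reads among listed transcripts and were not tested.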

How the data were processed

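RNA of 8 libraries was sequenced as pairs of 50 bp from 10 ng of RNA, with a stranded, random-primed, ribosome-depleting kit, per the labels' protocols, which also state that 1 unnamed sample missed the RNA quality of the others. HISAT2 and StringTie, with FastQC, Trimmomatic and bedtools, are named per the submitters' processing notes, as is the build mm10, but the sources used here give no versions, settings or use of strand.

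The deposited gene table holds FPKM made by the authors, and a second deposited table holds TPM for 46435 loci. The deposited transcript table holds FPKM and read coverage, a signal from which aligned bases were computed, for 89871 transcripts. FPKM is relative to all fragments, and the 10 most abundant genes took 63.7% to 78.9% of it.

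From these, log2(FPKM + 1) was fitted with limma 3.58.1 (mean-variance trend, R 4.3.3), 1 mean for each group over all 8 libraries, no covariate, two-sided; a calculation on simulated data was checked first. Members, lists and alternatives were chosen with earlier results of these data known. From each list and comparison, genes could be named by mean FPKM, up to 3 called in the direction of most calls and up to 2 in the other; markers, transcripts and libraries singled out were named after their values were seen. Alternatives were the pseudocount (0.1), no filter on low values, 3 scalings, the TPM table, fits of 2 groups, the replicate number as a block, and each library left out. Gene positions and promoters are from RefSeq for GRCm38. 1 gene named by the likeness of its pattern to a member is not reported here.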

Additional observations from a re-analysis of the deposited data

How the results depend on the processing

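Of 480 repeats of the 30 log2 differences of the 10 genes under 16 alternatives, 452 kept direction and call, 6 gained a call, 14 lost it and 8 changed sign. For SC minus SMF, Sparcl1 was -0.45 and -0.14 under median-of-ratios and upper-quartile scaling, and Fn1 was -0.57, -0.28 and, by the trimmed sum, -0.08. For EC minus SMF, Thbs2 was -0.14 and -0.05 under the first 2 scalings, and Thbs4 ranged from -1.19 to 0.38 when single libraries were left out, the second without SMF replicate 1. The count of the 10 genes called for SC minus SMF was 5 under median-of-ratios and 5 under upper-quartile scaling, against 8 as deposited. The cause was not tested. Leaving out each library, the count of all genes called for SC minus EC ranged from 4042 to 6368, against 6288, where a lone SC library was assumed to vary like the other groups. Replicate numbers are shared between groups, and correlations of same-numbered libraries, each centred on its group, lay between -0.0581 and 0.0906. With 2 or 3 libraries in a group these cannot show whether same-numbered libraries were paired. With the replicate block, 3, 8 and 7 of the 10 genes were called for SC minus EC, SC minus SMF and EC minus SMF. Of all genes tested, 5515 were then called for SC minus EC, and the shares for the comparisons with SMF are not given here. Depth limits Tnc, Spp1 and Thbs4, whose lowest libraries held under 10 fragments.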
